A study of Mus musculus with 3 samples.

Results

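The 10 genes described here were chosen by symbol and make up a core of the Nrf2 pathway and its antioxidant enzymes. They are Nfe2l2 and Keap1, which encode the pathway's transcription factor and its inhibitor, and the genes of 8 enzymes or enzyme subunits, Nqo1, Hmox1, Gclc, Gclm, Txnrd1, Srxn1, Gpx2 and Gpx3. They are 10 of the 22609 genes of the deposited table, and each reached 1 RPKM in some library. RPKM, the unit of every level below, is a read number divided by the length of the gene model and by the depth of its library.

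The levels come from RNA sequencing of 3 sorted epithelial populations of C57BL/6 mice, for which the labels give no mutant allele and no treatment. Cortical thymic epithelial cells (cTEC), sorted as CD45-negative, EpCAM-positive, Ly51-positive and negative for the lectin UEA1, and medullary thymic epithelial cells (mTEC), sorted as CD45-negative, EpCAM-positive, Ly51-negative and UEA1-positive, were both drawn from 1 pool of 14 thymi at the age of 7 days. The skin population (skinEC), the EpCAM-positive and CD11c-negative keratinocytes of the body skin, was drawn from 7 newborn mice. Each population has 1 library, so no spread between replicates exists, no test was made and no p-value is given. Tissue, age and the sort differ together between the thymic and the skin libraries and cannot be told apart.

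The libraries were scaled by 56598578 mapped reads for cTEC, 55475763 for mTEC and 55865024 for skinEC, numbers that were recovered from the steps of the RPKM values. The marker sums were each highest in the library they mark. The summed level of 6 cortical markers was 9932 in cTEC, 741 in mTEC and 70.5 RPKM in skinEC, that of 6 medullary markers was 11.1, 1872 and 18.4 RPKM, and that of 8 keratinocyte markers was 182, 935 and 31009.6 RPKM, in the same order. Of the keratinocyte markers, Lor was higher in mTEC (38.0 RPKM) than in skinEC (30.3 RPKM), and Dsg1a was at 44.7 and 55.2 RPKM. Summed markers of other cells were highest in mTEC for 7 thymocyte genes (summed levels of 12.3, 27.7 and 4.69 RPKM), 7 erythroid genes (5.82, 27.8 and 0.753 RPKM) and 6 fibroblast genes (39.9, 101 and 34.1 RPKM). Of these genes, Rag1 and Col3a1 were higher in cTEC. The sum of 5 endothelial genes was 15.7, 18.3 and 0.422 RPKM. Of them, Pecam1, Cdh5, Kdr and Emcn were highest in cTEC, and Tek was at 0.676 in cTEC and 9.40 RPKM in mTEC. The sum of 5 melanocyte genes was 6.28, 9.26 and 10.1 RPKM. The part of such cells in the results was not tested, and markers of macrophages, dendritic cells and tuft cells are given beside the genes they moved with.

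Nrf2 is a transcription factor whose protein is made all the time and destroyed at once in an unstressed cell, because Keap1 presents it to a Cul3 ubiquitin ligase. Oxidants and electrophiles modify cysteines of Keap1, Nrf2 then accumulates, pairs with a small Maf protein and binds antioxidant response elements near the genes of glutathione synthesis, thioredoxin reduction, quinone reduction and heme breakdown. Control is thus largely at the protein, and the mRNA of Nfe2l2 or Keap1 does not by itself report how active the pathway is. In the thymus, oxidative damage to the stroma has been studied as a contributor to the early shrinkage of the organ.

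Promoter sequences are shown for Srxn1, Nqo1 and Gpx3, the members with the largest log2 ratios between libraries. They are the 250 bases before the annotated start site, taken from RefSeq on build GRCm38.p6, a later build than the mm9 of the expression values. RefSeq windows were found for 8 of the 10 genes, and those of Hmox1 and Gclc were not matched. Capitals mark matches, on either strand, to TGACNNNGC (the core of the antioxidant response element), to TGANTCA (the AP-1 element) or to TGAGNNNGC (the response element core with G at the fourth base, added after the windows were read).
Srxn1, chr2:152105274-152105523, plus strand: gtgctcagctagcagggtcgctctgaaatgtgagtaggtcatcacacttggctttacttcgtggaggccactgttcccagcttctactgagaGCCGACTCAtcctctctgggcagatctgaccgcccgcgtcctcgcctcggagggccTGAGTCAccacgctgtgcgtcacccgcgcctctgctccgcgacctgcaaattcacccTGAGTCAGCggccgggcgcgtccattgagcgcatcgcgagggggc
Nqo1, chr8:107403206-107403455, minus strand: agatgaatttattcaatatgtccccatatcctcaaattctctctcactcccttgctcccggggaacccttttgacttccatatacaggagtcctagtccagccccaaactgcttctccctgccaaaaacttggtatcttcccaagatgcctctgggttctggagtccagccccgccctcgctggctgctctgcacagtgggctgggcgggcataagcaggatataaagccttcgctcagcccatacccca
Gpx3, chr11:54902604-54902853, plus strand: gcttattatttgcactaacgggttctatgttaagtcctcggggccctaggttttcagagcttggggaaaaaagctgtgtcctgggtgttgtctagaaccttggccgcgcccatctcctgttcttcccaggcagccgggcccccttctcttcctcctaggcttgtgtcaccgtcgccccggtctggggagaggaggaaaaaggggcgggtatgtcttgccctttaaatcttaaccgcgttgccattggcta

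The Srxn1 window held TGAGTCA 102 and 45 bases before the start site, and the nearer copy continues as TGAGTCAGC, so it matches both the AP-1 element and the added form. The Nqo1 and Gpx3 windows held none of the 3 motifs, which says only that these letters are not in these windows. Over windows running from 250 bases before to 50 bases after the start, TGACNNNGC was found in 4 of the 10 windows of the matched genes and in 12.4% of the 32851 RefSeq windows of that length. TGANTCA was found in 1 of the 10 and in 7.81% of all windows, and TGAGNNNGC in 1 of the 10 and in 17.6%. The 4 windows with TGACNNNGC are shown with 10 bases on either side, since they are the matches to the element that names the pathway. Those of Nfe2l2, Gclm and Txnrd1 began 240, 134 and 92 bases before the start, and that of Srxn1 began 28 bases after it.
Nfe2l2, chr2:75704885-75704913, minus strand: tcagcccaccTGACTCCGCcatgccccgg
Gclm, chr3:122245413-122245441, plus strand: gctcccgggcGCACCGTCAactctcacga
Txnrd1, chr10:82859104-82859132, plus strand: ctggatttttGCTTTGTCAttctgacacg
Srxn1, chr2:152105542-152105570, plus strand: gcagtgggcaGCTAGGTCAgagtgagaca

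The regulators were expressed at moderate levels, within 4-fold of each other, in all 3 epithelia. Nfe2l2 (Entrez 18024), the gene of Nrf2, was at 48.8 in cTEC, 27.9 in mTEC and 25.4 RPKM in skinEC. The cTEC level was 1.75 times that of mTEC and 1.92 times that of skinEC. Keap1 (Entrez 50868), the gene of the adaptor that holds Nrf2 back, was at 33.0 in cTEC, 23.7 in mTEC and 40.3 RPKM in skinEC. On the deposited scale Nfe2l2 was thus highest in cTEC, and Keap1 was highest in skinEC. There the highest level of either gene was less than 2-fold its lowest. The other scalings shift cTEC over skinEC by log2 values of 0.19 to 0.36, which takes Nfe2l2 past 2-fold. With each library scaled to a common sum, the log2 ratio of Keap1 for cTEC over skinEC was 0.07, against -0.28, so its order between these libraries turned.

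Differences between libraries are given as log2 ratios of RPKM + 1, which understate the difference of low genes, and a gene was counted as apart from a log2 ratio of 2, which is 4-fold. On this scale Nfe2l2 stood at 0.78 for cTEC over mTEC and Keap1 at 0.46. With no replicates these differences cannot be set against a spread. The counting intervals of Nfe2l2 in mTEC (27.0 to 28.8 RPKM) and skinEC (24.5 to 26.2 RPKM) lay apart, but such intervals cover counting error only. They are exact 95% Poisson intervals on the smallest read numbers that fit the values.

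**Figure D1:**
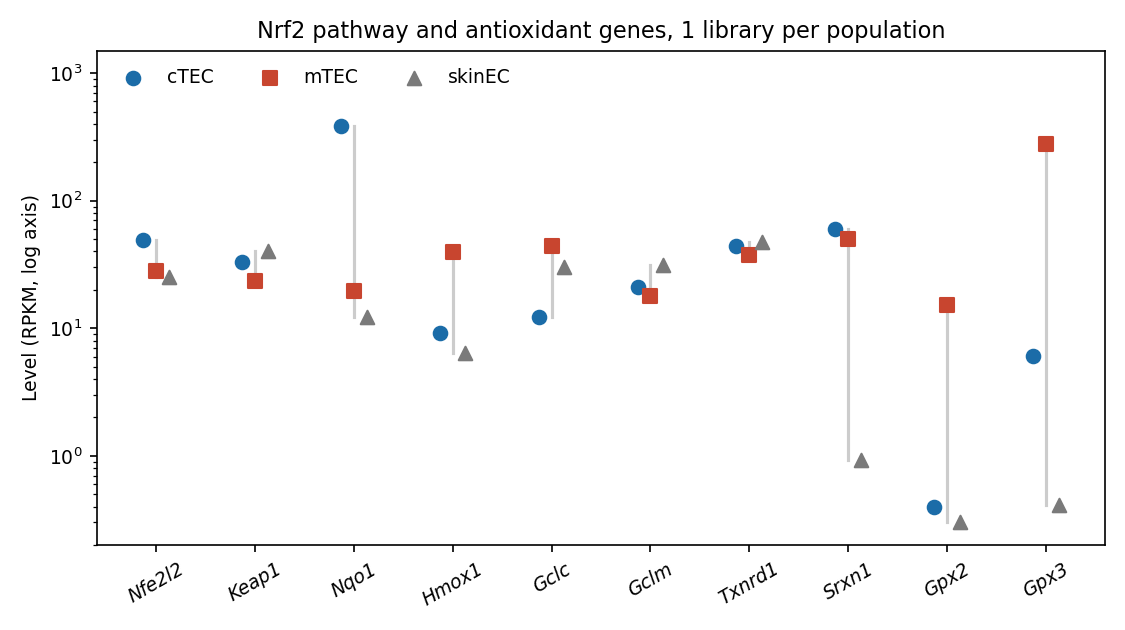
Level of each of the 10 genes in RPKM (vertical log axis) in the cTEC (circles), mTEC (squares) and skinEC (triangles) libraries, 1 library each, with a grey line from the lowest to the highest value. Nqo1 reached 384 RPKM in cTEC, Gpx3 reached 278 RPKM in mTEC, and Srxn1 was at 0.922 RPKM in skinEC, while Txnrd1 lay between 37.5 and 47.3 RPKM.

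Nqo1 (Entrez 18104) encodes a quinone reductase that turns quinones into hydroquinones by transferring a pair of electrons at once, and it is a classical Nrf2 target. It was at 384 in cTEC, 19.4 in mTEC and 12.3 RPKM in skinEC. The cTEC library stood far above the others, by 19.8-fold over mTEC and 31.2-fold over skinEC. Nqo1 was 115th in level among all genes of the cTEC library, 5143rd in mTEC and 6992nd in skinEC. It was the single member counted as apart toward cTEC in the comparison with mTEC, with a log2 ratio of 4.24.

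Srxn1 (Entrez 76650) encodes sulfiredoxin, the enzyme that repairs overoxidised peroxiredoxins. It was at 59.6 in cTEC, 50.2 in mTEC and 0.922 RPKM in skinEC. Both thymic libraries were high and the skin library was low, with a ratio of 64.6-fold for cTEC over skinEC and 54.5-fold for mTEC over skinEC. The skinEC value rests on at least 133 reads and has a counting interval of 0.772 to 1.09 RPKM. Between the thymic libraries the log2 ratio was 0.24, and -0.04 with median-ratio scaling. Nqo1 and Srxn1 therefore shared a high level in cTEC, but in mTEC Srxn1 was high and Nqo1 was not.

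Hmox1 (Entrez 15368) encodes the inducible heme oxygenase, which opens the heme ring and releases iron, carbon monoxide and biliverdin. It was at 9.15 in cTEC, 40.0 in mTEC and 6.45 RPKM in skinEC. The mTEC library was higher by 4.37-fold over cTEC and by 6.19-fold over skinEC. For cTEC over mTEC the log2 ratio of -2.01 lay just past the threshold, and it was -1.67 with a pseudocount of 5 RPKM, within 4-fold. With that pseudocount the ratio of mTEC over skinEC was 1.97, against 2.46. Hmox1 is also a gene of macrophages that recycle heme. These cells carry CD45, and both thymic populations were sorted as CD45-negative. How far the sort removed such cells was not tested. Of 12 macrophage and dendritic cell markers, 9 were past 4-fold toward mTEC against cTEC, and 9 against skinEC, where 15.2% and 16.8% of all genes were. Their summed level was 8.93 in cTEC, 847 in mTEC and 8.52 RPKM in skinEC, and none was listed at 0 in any library. Most of the mTEC sum came from Laptm5 (460 RPKM) and Lyz2 (283 RPKM). The part of such cells in the Hmox1 level was not tested. In bulk samples like these, fewer cells of a type and less RNA per cell cannot be told apart.

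The subunits of glutamate-cysteine ligase, the enzyme that sets the pace of glutathione synthesis, did not follow each other. Gclc (Entrez 14629), the catalytic subunit, was at 12.3 in cTEC, 44.0 in mTEC and 30.1 RPKM in skinEC. It was the only 1 of the 10 genes whose lowest level was in cTEC. Gclm (Entrez 14630), the modifier subunit, which raises the activity of the catalytic subunit, was at 21.1 in cTEC, 17.9 in mTEC and 31.5 RPKM in skinEC. The log2 ratio of cTEC over mTEC was -1.75 for Gclc and 0.23 for Gclm, both within 4-fold, and that of Gclm was -0.05 with median-ratio scaling. Gclc passed the threshold, at -2.04, when libraries were scaled by their median ratio.

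Txnrd1 (Entrez 50493), the cytosolic thioredoxin reductase, was the most even of the 10 genes. It was at 43.8 in cTEC, 37.5 in mTEC and 47.3 RPKM in skinEC, a highest level 1.26 times the lowest. The sign of its log2 ratio turned in all 3 comparisons when libraries were scaled by their median ratio. The enzyme contains selenocysteine, as do Gpx2 and Gpx3.

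Gpx2 and Gpx3 belong to the glutathione peroxidases, which reduce peroxides at the expense of glutathione, and both were highest in mTEC. Gpx3 (Entrez 14778), the secreted form found in plasma, was at 6.11 in cTEC, 278 in mTEC and 0.409 RPKM in skinEC. The 3 libraries lay far from each other, with mTEC 45.5-fold above cTEC and 679.6-fold above skinEC. Gpx3 was the 162nd gene by level in mTEC and the 9263rd in cTEC. Gpx2 (Entrez 14776), the form best known from the epithelium of the gut, was at 0.397 in cTEC, 15.3 in mTEC and 0.302 RPKM in skinEC. The low Gpx2 values rest on at least 24 reads in cTEC and 18 in skinEC, against 906 in mTEC. Their counting intervals, 0.255 to 0.591 and 0.179 to 0.477 RPKM, overlap. A difference in Gpx2 between cTEC and skinEC was not tested. The mTEC level was 38.5-fold that of cTEC and 50.7-fold that of skinEC. With a pseudocount of 5 RPKM the log2 ratios of Gpx2 came within 4-fold, at -1.91 for cTEC over mTEC and 1.94 for mTEC over skinEC. So did that of Gpx3 for cTEC over skinEC, at 1.04 against 2.33. Markers of tuft cells, an epithelial type with counterparts in the gut and the thymic medulla, had a summed level of 35.4 in cTEC, 794 in mTEC and 185 RPKM in skinEC over 5 genes. Of these, 4 were past 4-fold toward mTEC in both of its comparisons, where 15.2% (against cTEC) and 16.8% (against skinEC) of all genes were. None was listed at 0, and Pou2f3 was highest in skinEC, at 182 RPKM. Their part in the levels of Gpx2 and Gpx3 was not tested.

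Across the 10 genes, 1 was at least 4-fold higher in cTEC than in mTEC (Nqo1), where 2.69% of the 16869 genes at 1 RPKM or more in any library were. On the mTEC side were 3 (Gpx3, Gpx2 and Hmox1), where 15.2% of all genes were. In cTEC against skinEC, 3 were past 4-fold toward cTEC (Srxn1, Nqo1 and Gpx3, with log2 ratios of 4.98, 4.85 and 2.33) against 6.3% of all genes. Toward skinEC 0 were, against 5.82%. In mTEC against skinEC, 4 were past 4-fold toward mTEC (Gpx3, Srxn1, Gpx2 and Hmox1, with log2 ratios of 7.63, 4.74, 3.65 and 2.46) against 16.8%. Toward skinEC 0 were, against 4.2%. The 3 comparisons share libraries, so the third ratio of a gene follows from the others, and with 10 genes 1 gene moves a share by much.

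A looser threshold of 2-fold added Gclc alone. At 2-fold, 1 gene was higher in cTEC and 4 in mTEC, where 10.9% and 30.8% of all genes were. Against skinEC, 3 genes were higher in cTEC and 1, Gclc, in skinEC, where 15.4% and 14.3% of all genes were. In mTEC against skinEC the counts were 4 and 0, against 34.0% and 16.7%. The median log2 ratio of the 10 genes was 0.22 for cTEC over mTEC, 0.27 for cTEC over skinEC and 0.57 for mTEC over skinEC, and the medians of all genes tested were -0.08, 0.0 and 0.16. In all, 5 of the 10 genes stayed within 4-fold in all 3 comparisons, namely Nfe2l2, Keap1, Gclc, Gclm and Txnrd1. The lowest level was in skinEC for 6 genes, in mTEC for 3 and in cTEC for 1.

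**Figure D2:**
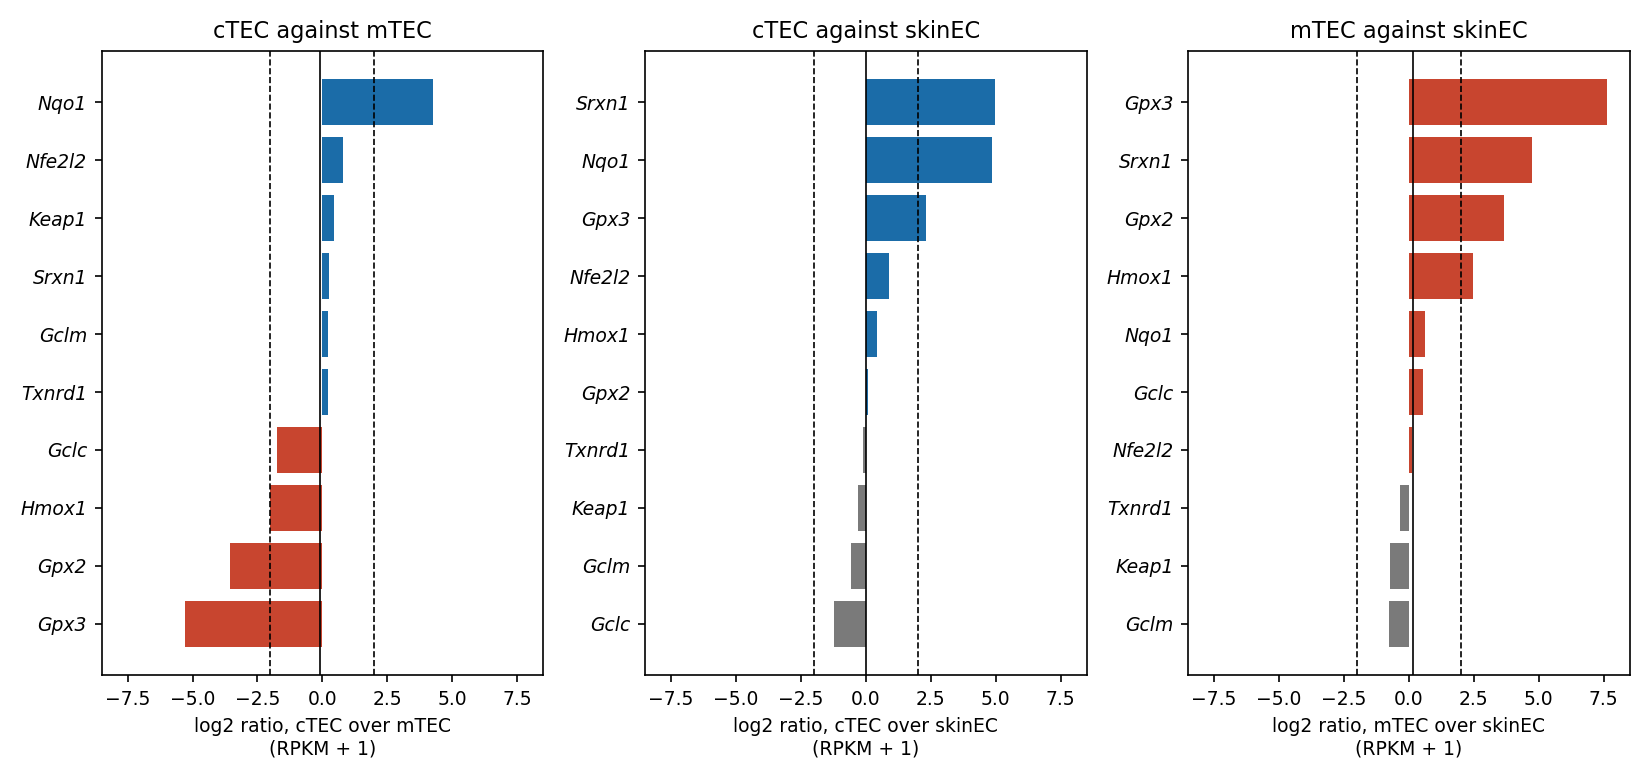
Log2 ratio of RPKM + 1 for each of the 10 genes in the 3 comparisons, sorted within each panel. Dashed lines mark 4-fold and the solid line the median of all genes tested. Nqo1 (4.24) and Gpx3 (-5.30) form the ends of the cTEC against mTEC panel, and no gene passes the dashed line toward skinEC.

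Genes with levels most like those of the 5 members that passed 4-fold were found by the largest difference in log2(RPKM + 1) over the 3 libraries. No named gene came within 0.5 of Nqo1 in all 3, and the nearest was Hgsnat, at 301 in cTEC, 14.9 in mTEC and 20.5 RPKM in skinEC. For Gpx3, 4 genes came within 0.5, led by Lrmp (6.23, 323 and 0.201 RPKM) and Fgf21 (6.75, 225 and 0.227 RPKM). For Srxn1, 5 genes did, led by Iigp1 (57.3, 43.8 and 1.31 RPKM), Lrrc16b and Cd274. For Hmox1, 24 genes did, led by Prcp (9.73, 39.3 and 5.84 RPKM), and for Gpx2, 272 did, led by Vnn3 (0.322, 16.0 and 0.385 RPKM). By this measure few genes came near the levels of Nqo1, Gpx3 and Srxn1. Many came near those of Gpx2, moderate in mTEC and below 1 RPKM elsewhere. The added 1 RPKM draws values below 1 RPKM together, and few genes are as high as Nqo1 in cTEC or Gpx3 in mTEC. The counts therefore do not compare how rare the patterns are.

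The wider pathway was read from 10 lists of 131 genes, of which 127 were at 1 RPKM or more in any library. In cTEC against mTEC, 4 of the 127 (3.15%) lay past 4-fold toward cTEC and 22 (17.3%) toward mTEC. Against skinEC, 4 (3.15%) lay past 4-fold toward cTEC and 7 (5.51%) toward skinEC. In mTEC against skinEC, 21 (16.5%) lay past 4-fold toward mTEC and 5 (3.94%) toward skinEC. For cTEC against mTEC and for mTEC against skinEC these shares lie close to those of all genes, 2.69% and 15.2%, and 16.8% and 4.2%. Against skinEC the share higher in cTEC was below the 6.3% of all genes. The lists differed among themselves, as the plot of ratios by list shows.

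**Figure D3:**
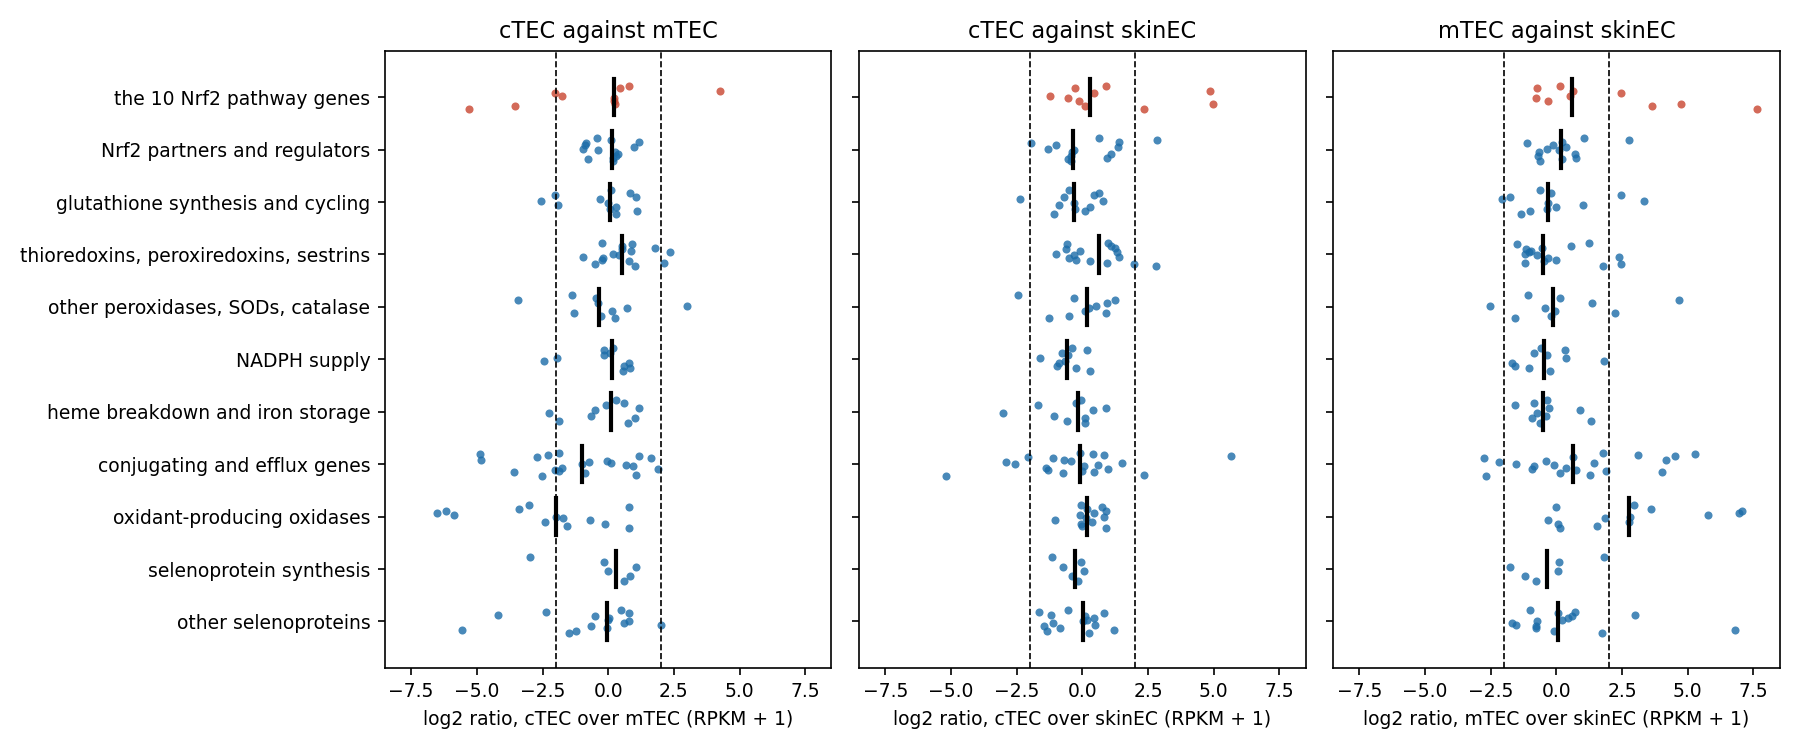
Log2 ratio of RPKM + 1 of each gene (points) for the 10 Nrf2 pathway genes (red) and 10 further lists (blue) in the 3 comparisons. Black bars are list medians and dashed lines mark 4-fold. The oxidase list has a median of -1.99 for cTEC over mTEC, and the list of partners and regulators has no point past 4-fold in that panel.

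Partners and regulators of Nrf2 varied little within the thymus. Of 14 measured genes, 0 were apart between cTEC and mTEC, with a median log2 ratio of 0.14. Of all genes, 2.69% were apart toward cTEC and 15.2% toward mTEC. Sqstm1, an autophagy receptor that can draw Keap1 away from Nrf2, was the most abundant, at 157 in cTEC, 139 in mTEC and 82.0 RPKM in skinEC. Against skinEC, 1 gene of the list was apart toward cTEC and 1 toward mTEC, where 6.3% and 16.8% of all genes were. Toward skinEC 0 were in either comparison, where 5.82% and 4.2% of all genes were. With a common sum of the libraries, or a pseudocount of 0.1 RPKM, 2 genes were apart in cTEC against skinEC. The gene apart in both comparisons was Nfe2l3, a relative of Nrf2, at 52.9 in cTEC, 48.8 in mTEC and 6.42 RPKM in skinEC. Its order of levels resembled that of Srxn1.

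Genes of glutathione synthesis and cycling lay past 4-fold toward mTEC in a share near that of all genes. Of 12 genes, 2 did so against cTEC, with a median of 0.08, where 15.2% of all genes did. With a pseudocount of 5 RPKM 0 genes of the list did, where 881 of the 16869 genes tested did. With that pseudocount 0 were past 4-fold between mTEC and skinEC. Slc7a11, the cystine importer that feeds glutathione synthesis, was at 0.994 in cTEC, 10.6 in mTEC and 0.153 RPKM in skinEC. Its partner chain Slc3a2 was even, at 64.5, 64.2 and 80.4 RPKM. Oplah, which recycles oxoproline to glutamate, was at 11.2 in cTEC, 14.0 in mTEC and 61.6 RPKM in skinEC. It was the single gene of the list past 4-fold toward skinEC against cTEC, where 5.82% of all genes were. Slc7a11 and Gclc were thus both lower in cTEC than in mTEC.

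Thioredoxins, peroxiredoxins and sestrins ranged from 5.76 RPKM, for Sesn2 in skinEC, to 503 RPKM, for Txn1 in mTEC. Txn1, the cytosolic thioredoxin, was at 425 in cTEC, 503 in mTEC and 213 RPKM in skinEC. Of 16 genes, 2 lay past 4-fold toward cTEC against mTEC and 0 toward mTEC, where 2.69% and 15.2% of all genes did. The 2 were the nucleoredoxin gene Nxn (174 against 33.4 RPKM) and the sestrin gene Sesn1 (39.2 against 8.32 RPKM). With a pseudocount of 5 RPKM, and with libraries scaled by their median ratio, 1 gene of the list was past 4-fold between these libraries. Against skinEC, Sesn3 was higher in cTEC (73.1 against 9.61 RPKM), and Sesn2 (36.3 against 5.76 RPKM) and the mitochondrial peroxiredoxin gene Prdx3 (87.0 against 16.0 RPKM) were higher in mTEC. They make 1 of 16 genes past 4-fold toward cTEC and 2 toward mTEC, where 6.3% and 16.8% of all genes were. Toward skinEC 0 were in either comparison, where 5.82% and 4.2% of all genes were. In cTEC against skinEC the list held 2 genes past 4-fold under each of the other scalings, and in mTEC against skinEC it held 1 with a pseudocount of 5 RPKM.

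Among other peroxidases, superoxide dismutases and catalase, 10 genes were measured. In cTEC against mTEC, 1 was apart toward cTEC and 1 toward mTEC, where 2.69% and 15.2% of all genes were. Gpx8, a peroxidase of the endoplasmic reticulum, was at 36.0 in cTEC, 3.57 in mTEC and 25.1 RPKM in skinEC. Gpx6, a relative of Gpx3, reached 1.37 RPKM in cTEC and 24.6 in mTEC and is listed at 0 in skinEC. Gpx1, the widespread cytosolic form, was at 50.6 in cTEC, 133 in mTEC and 279 RPKM in skinEC. Of the glutathione peroxidases apart from cTEC in mTEC, Gpx2, Gpx3 and Gpx6 were higher in mTEC and Gpx8 was lower. Sod1, the cytosolic superoxide dismutase, was at 339, 206 and 282 RPKM in cTEC, mTEC and skinEC, and Cat, the catalase that removes the hydrogen peroxide it makes, was at 42.3, 34.7 and 104 RPKM. Catalase was lower in both thymic libraries than in skinEC, by less than 4-fold.

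NADPH, which Nqo1, thioredoxin reductase and glutathione reductase all use, is supplied by the pentose phosphate pathway and malic enzyme. Of 10 measured genes of this supply, 1 lay past 4-fold toward mTEC against cTEC, where 15.2% of all genes did. In the other comparisons 0 were apart, where 4.2% to 16.8% of all genes were, by comparison and direction. Me1, the cytosolic malic enzyme and a known Nrf2 target, was at 9.03 in cTEC, 54.0 in mTEC and 14.8 RPKM in skinEC. Tkt, transketolase, was at 68.8, 268 and 210.5 RPKM. Both were lowest in cTEC, while 6 genes of the list were lowest in mTEC, and the median log2 ratio of the list was 0.14 for cTEC over mTEC. With median-ratio scaling 2 genes were past 4-fold in cTEC against mTEC, and 1 in mTEC against skinEC.

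Conjugating and efflux genes of the Nrf2 programme were divided. Of 21 genes, 7 lay past 4-fold toward mTEC against cTEC and 0 toward cTEC, where 15.2% and 2.69% of all genes did. The median log2 ratio was -1.01. With a pseudocount of 5 RPKM the list held 4 genes past 4-fold, and 881 of the 16869 genes tested were past it toward mTEC. The glutathione transferase gene Gsta2 was at 0.579 in cTEC, 45.5 in mTEC and 0.188 RPKM in skinEC, and Gstm3 is listed at 0 in cTEC, with 27.8 in mTEC and 0.611 RPKM in skinEC. Gstm1 was at 14.8, 102 and 64.6 RPKM and the efflux pump gene Abcc3 at 0.756, 19.9 and 0.290 RPKM in cTEC, mTEC and skinEC. Reads of these transferases are uncertain, since the family has close copies. Gsta4, which conjugates products of lipid peroxidation, took the opposite course within the thymus, at 165 in cTEC, 72.6 in mTEC and 2.26 RPKM in skinEC. Its high thymic and low skin levels resembled those of Srxn1. Aldh3a1, an aldehyde dehydrogenase, was highest in skinEC, at 148 RPKM against 3.06 RPKM in cTEC and 22.0 RPKM in mTEC.

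Oxidant-producing oxidases had the median farthest from 0 of the 10 lists in cTEC against mTEC. Of 13 measured genes, 6 were past 4-fold toward mTEC against cTEC and 7 against skinEC, where 15.2% and 16.8% of all genes were. On the other side were 0, where 2.69% and 4.2% of all genes were. Between cTEC and skinEC 0 were apart, where 6.3% and 5.82% of all genes were, toward cTEC and skinEC. The median log2 ratio was -1.99 for cTEC over mTEC and 2.77 for mTEC over skinEC. With a pseudocount of 5 RPKM the counts were 3 and 3 and the medians -1.05 and 1.14. Of the 16869 genes tested, 881 and 1020 were then past 4-fold toward mTEC. With a pseudocount of 0.1 RPKM the median for cTEC over mTEC was -3.79. Cyba, the membrane partner of several NADPH oxidases, was at 9.43 in cTEC, 749.8 in mTEC and 4.62 RPKM in skinEC. Ncf1 and Ncf4, which encode cytosolic subunits of the phagocyte oxidase, were at 142 and 68.5 RPKM in mTEC and at 0.578 and 0.182 RPKM in cTEC. Cybb, its catalytic subunit, was at 11.1 RPKM in mTEC, 0.164 RPKM in cTEC and 0.0151 RPKM in skinEC. Noxo1, an organiser subunit of another NADPH oxidase, was at 5.05 in cTEC, 23.1 in mTEC and 2.45 RPKM in skinEC. The macrophage and dendritic cell markers moved with these genes, with the summed levels given beside Hmox1, and their part in the oxidase levels was not tested. Of the 12 markers, Laptm5 (460 RPKM) and Lyz2 (283 RPKM) were the highest in mTEC and Itgax (1.07 RPKM) the lowest.

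**Figure D4:**
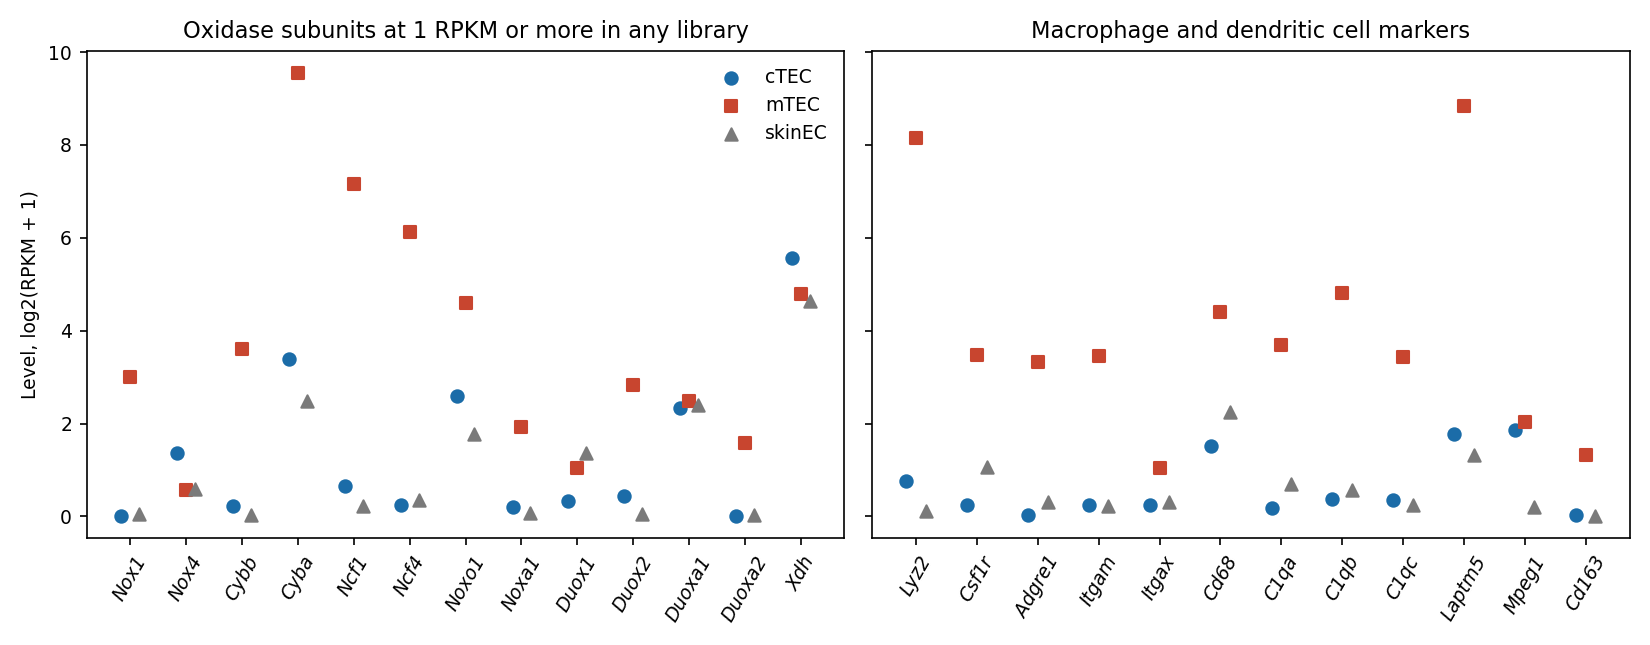
Level as log2(RPKM + 1) of the 13 measured oxidase genes (left) and of the 12 macrophage and dendritic cell markers (right) in cTEC (circles), mTEC (squares) and skinEC (triangles). Cyba, Ncf1 and Ncf4 are high in mTEC, with Cyba at 749.8 RPKM there. The markers are highest in mTEC but differ widely in level, from Itgax at 1.07 RPKM to Laptm5 at 460 RPKM.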

How the data were processed

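The authors deposited 1 RPKM value per gene and library, per the file headers. CASAVA 1.8.2 and the build mm9 are named, with no role, in the submitters' processing notes. No source used here gives the aligner, the annotation, whether strand was used or whether both mates of a pair were counted. Genes with close copies or overlapping partners are therefore uncertain.

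The table held 22663 entries. Removing 14 identical ones and, for repeated symbols, the 40 with the smaller sums left 22609 genes. List symbols were matched by name or, for 13, by the Entrez number that RefSeq gives. Ratios used a pseudocount of 1 RPKM over 16869 genes at 1 RPKM or more in any library, and a gene counted from a log2 ratio of 2. Genes named from a list were those past 4-fold in any comparison and at 10 RPKM or more, at most 5 by the ratio of cTEC over mTEC, with the most abundant gene and members that complete an enzyme pair. The 10 genes and all lists were chosen with earlier results of these data known. 1 gene was left out of a list and is not reported here.

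Depth was recovered because the RPKM values of a gene in different libraries stand in ratios of whole reads. The commonest exact ratio among genes under 0.3 RPKM gave the relative depths, and the commonest whole divisor of reads over RPKM gave the totals. With them, 87.3% of the 15991 genes above 0 in all 3 libraries had whole read ratios, with terms up to 10000 and a relative tolerance of 1e-11. Read numbers are the smallest that fit the values, were found for 7 of the 10 genes and are not counts of molecules. The search was checked on simulated data. Python 3.11.15, pandas 2.3.3, numpy 2.4.6, scipy 1.17.1 and matplotlib 3.10.9 were used. Alternatives for the pseudocount, filter, scaling and threshold are given in the closing section.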

Additional observations from a re-analysis of the deposited data

How the results depend on the processing

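Alternatives changed the pseudocount (0.1 or 5 RPKM), the filter (none or 5 RPKM), the scaling (a common sum of all libraries, the same without the 50 largest genes of each, or the median ratio) and the threshold (2-fold). Of 210 alternative ratios of the 10 genes, 204 stayed on the same side of 4-fold. The 210 include the filter settings, which cannot change the ratio of a gene. A pseudocount cannot change its sign. A change of sign was found in 8, of Keap1, Gclm, Txnrd1 and Srxn1, all under a change of scaling. Each was from a ratio of at most 0.33 in size, and none from a ratio past 4-fold. The count of members higher in mTEC than in cTEC was 1, and than in skinEC 2, with a pseudocount of 5 RPKM, where Gpx2 (-1.91 and 1.94) and Hmox1 (-1.67 and 1.97) came within 4-fold. At 2-fold 1 member was higher in skinEC than in cTEC. Gpx3 in cTEC over skinEC was 1.04 with a pseudocount of 5 RPKM. Of 210 counts by list, 35 moved by more than 1.5 times, and 6 of 210 list medians crossed 4-fold, all of the oxidase list.

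The scale factors alone amount to log2 shifts of 0.19 to 0.36 for cTEC over skinEC, 0.27 to 0.48 for mTEC over skinEC and -0.29 to 0.03 for cTEC over mTEC. With the pseudocount kept at 1, the ratios of the 10 genes moved by 0.04 to 0.85, 0.25 to 1.01 and -0.81 to 0.07. Over all genes, the count higher in mTEC than in cTEC was 4554 with a pseudocount of 0.1 RPKM, 881 with 5 RPKM and 3984 with a common sum without the 50 largest genes, and the count higher in cTEC was 221 with 5 RPKM. For cTEC against skinEC the count higher in cTEC was 1989, 445, 1642 and 1668 with pseudocounts of 0.1 and 5 RPKM, a common sum and the same without the 50 largest genes. The count higher in skinEC was 1490 and 471 with the pseudocounts. For mTEC against skinEC the count higher in mTEC was 5030, 1020, 4321 and 4683 in the same order, and the count higher in skinEC was 373 with 5 RPKM and 434 with the median ratio. The causes were not tested. No paired analysis was possible because each population has 1 library, so leaving out a replicate was not possible either. The intervals cover counting error only, and no value has a replicate error.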

Other observations

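Selenoproteins beyond the members were read as well, since Gpx2, Gpx3 and Txnrd1 contain selenocysteine. Of 6 genes that make or place selenocysteine, 1 was at least 4-fold higher in mTEC than in cTEC, where 15.2% of all genes were. The gene was Sephs2, which makes the selenium donor, at 11.9 in cTEC, 99.9 in mTEC and 27.9 RPKM in skinEC. Of 15 other selenoprotein genes, 3 lay past 4-fold toward mTEC and 1 toward cTEC, where 15.2% and 2.69% of all genes were. With a pseudocount of 5 RPKM 2 were past 4-fold in either direction. Of the 16869 genes tested, 881 were then past it toward mTEC and 221 toward cTEC. Dio1, a thyroid hormone deiodinase, was at 1.41 in cTEC, 113 in mTEC and 0.0323 RPKM in skinEC. Selenom was at 3.71, 84.5 and 9.83 RPKM and Selenop, the selenium carrier of plasma, at 7.23, 41.1 and 25.1 RPKM. Selenon was on the other side, at 31.9, 7.15 and 22.5 RPKM, with a log2 ratio of 2.01 that is just past the threshold, and Selenow was the most abundant, at 252, 181 and 369 RPKM.

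Of 10 genes of heme breakdown and iron storage, 1 was at least 4-fold higher in mTEC than in cTEC, where 15.2% of all genes were. With a pseudocount of 5 RPKM 0 were, where 881 of the 16869 genes tested were. The 1 gene was Slc40a1, the iron exporter ferroportin, at 0.774 in cTEC, 7.40 in mTEC and 13.2 RPKM in skinEC. Fth1, the ferritin heavy chain, was at 1034, 457 and 551 RPKM, and its partner Ftl1 was at 204, 293 and 155 RPKM. The constitutive heme oxygenase gene Hmox2 was even, at 40.7, 33.2 and 42.3 RPKM, unlike Hmox1.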
